A study of Mus musculus with 48 samples.

Results

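The vacuolar ATPase (V-ATPase) is the proton pump of lysosomes, endosomes and the Golgi, and 10 genes of the pump were followed here through the 16 conditions of an RNA-Seq study of striatal progenitor cells. They were taken by name: 4 genes of the membrane sector V0 (Atp6v0a1, Atp6v0b, Atp6v0d1, Atp6v0e), 5 of the cytosolic sector V1 (Atp6v1a, Atp6v1b2, Atp6v1c1, Atp6v1d, Atp6v1h) and the accessory gene Atp6ap1. All 10 were among the 13409 genes with a symbol that passed the minimum level, of 18178 genes with a symbol and 27281 genes in the table, so no member was lost to the filter. V1 hydrolyses ATP and turns a central stalk, and V0 uses that rotation to carry protons across the membrane. The acid it makes serves lysosomal hydrolases and the uptake of nutrients, the assembly of V1 on V0 is regulated, and the pump also sits beside the Ragulator complex that links amino acids to mTORC1. In many cell types genes of the pump are targets of TFEB and related factors, which bind the letters CACGTG in promoters.

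The cells were STHdh lines, conditionally immortalised progenitors of mouse striatum that carry knock-in huntingtin. STHdhQ7 has a normal glutamine tract and STHdhQ111 an expanded one, and each genotype was 1 line, so a difference between them cannot be told apart from a difference between lines. All 48 samples, 3 per condition, were kept for 24 hours without serum. STHdhQ7 received vehicle (DMSO), and STHdhQ111 received vehicle or 1 of 14 compounds that the study had selected in a viability assay of these cells. The solvent of a compound was either DMSO or water, and which one is not given here. For a compound in water, compound and solvent cannot be told apart against the vehicle. Group A holds cyproheptadine and loxapine at 10 µM and pizotifen at 5 µM, tricyclic drugs that bind amine receptors, and Group B holds diacylglycerol kinase inhibitor II (DKI) and the antihistamine meclizine, both at 10 µM. The study set these 5 apart in part by the expression profiles of the same samples, so counts that set them against the vehicle or the other compounds are not independent of that choice, while it drew the split between Groups A and B from metabolite profiles. The other 9 were the histone deacetylase inhibitors sodium butyrate (1 mM) and trichostatin A (10 nM), the pyridoxine antagonist 4-deoxypyridoxine (DOP, 4 mM), cysteamine (250 µM), the sirtuin inhibitor selisistat (10 µM), fingolimod phosphate (250 nM), nortriptyline (1 nM), nicotinamide (0.5 nM) and haloperidol (0.5 nM).

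Collection was spread over 3 days with 3 times on each, and the conditions did not share the same slots. The STHdhQ111 vehicle shared its day and time with STHdhQ7 and selisistat in every replicate. Meclizine, pizotifen and trichostatin A shared theirs with haloperidol and fingolimod phosphate, while loxapine, sodium butyrate, DOP and cysteamine shared theirs with nicotinamide and nortriptyline. Differences from those slot-matched compounds are therefore given beside differences from the vehicle. Cyproheptadine and DKI shared all slots with each other and had 2 samples on day 3 and none on day 1. Values are the normalized log2 abundances of the authors, and 1 unit is a doubling on that scale. They carry no read counts, so depth is unknown. They are not divided by transcript length, so levels are compared only within a gene. The exception is a rough mark of 6 used below for markers of cell types. The residual SD of a gene within conditions had a median of 0.086 over all tested genes. Markers did not show a neural cell in full: 2 of 6 neural progenitor markers, Vim and Sox9, had a mean of at least 6 over all samples. Nes, Sox2 and Pax6 were at 4.96, 4.81 and 2.81 in the STHdhQ111 vehicle against 10.95, 8.91 and 5.41 in STHdhQ7. Sox9 went the other way (9.55 against 7.71), while Vim (15.42 and 15.60) and Fabp7 (0.67 and 0.77) differed little. Of the other lists, 3 of 14 striatal genes, 1 of 5 neuronal genes and 0 of 4 oligodendrocyte genes reached 6. Col1a1 was at 14.63 and 14.65 in STHdhQ111 and STHdhQ7, Col1a2 at 13.03 and 10.33 and Pdgfra at 9.04 and 7.71. Pdgfrb (10.77 and 10.74) and Dcn (7.32 and 7.25) differed little, and all 5 fibroblast or mesenchymal markers reached 6. So did 1 of 4 astrocyte genes (Slc1a3), 1 of 3 endothelial genes (Pecam1) and 1 of 4 microglia or macrophage genes. The last was Ptprc, at 10.59 in STHdhQ111 and 7.86 in STHdhQ7, while Aif1, Cx3cr1 and Csf1r were at -2.18, -1.81 and 1.93 in STHdhQ111. The samples were bulk RNA, in which fewer cells of a type and less RNA per cell cannot be told apart.

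RefSeq promoters (GRCm38.p6, 250 bases before to 50 bases after the start of each gene) were given for 7 of the 10 genes, and were not given for Atp6v1b2, Atp6v1c1 and Atp6v1h. CACGTG, which reads the same on both strands, was found in 4 of these 7 and in 7.15% of all 32851 promoters. The letters TCACGTGA, also the same on both strands and containing CACGTG, were found in 3 of the 7 and in 0.974% of all promoters. The 4 stretches are shown so that the members with the motif can be found again further on. Whether the motif has any part in the responses was not tested. Each is written 5′ to 3′ on the strand of the gene, with CACGTG and a flanking T or A that extends it in capitals. Atp6v0b (chr4:117887334-117887529, minus strand) has 2 copies within 40 bases of its start, and Atp6v0d1 (chr8:105566050-105566079, minus strand), Atp6v0e (chr17:26676387-26676416, plus strand) and Atp6v1a (chr16:44139373-44139402, minus strand) have 1 copy each.
Atp6v0b: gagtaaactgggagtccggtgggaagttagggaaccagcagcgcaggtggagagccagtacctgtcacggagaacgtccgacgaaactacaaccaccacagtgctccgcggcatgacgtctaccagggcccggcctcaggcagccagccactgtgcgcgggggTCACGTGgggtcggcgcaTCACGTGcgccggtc
Atp6v0d1: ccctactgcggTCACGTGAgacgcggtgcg
Atp6v0e: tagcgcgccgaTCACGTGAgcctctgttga
Atp6v1a: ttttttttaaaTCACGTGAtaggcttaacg

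The copies of CACGTG began at bases -36 and -18 of Atp6v0b, base -3 of Atp6v0d1, base -131 of Atp6v1a and base 4 of Atp6v0e, counted from 1 at the RefSeq start, with no base 0. The RefSeq start of Atp6v0e lies 13165 bases inside the GENCODE model of the gene, and those of Atp6v0a1 and Atp6v1a lie 946 and 446 bases inside theirs. The windows of Atp6ap1, Atp6v1d and Atp6v0a1 did not hold CACGTG. The 200 bases before the start of Atp6ap1 (chrX:74296897-74297096, plus strand) are shown as an example of a promoter without these letters in the window.
Atp6ap1: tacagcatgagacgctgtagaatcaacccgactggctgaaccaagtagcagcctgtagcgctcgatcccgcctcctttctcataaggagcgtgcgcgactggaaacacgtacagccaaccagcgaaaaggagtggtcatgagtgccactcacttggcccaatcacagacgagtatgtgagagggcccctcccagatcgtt

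Across the 14 compounds most rises of the pump genes came from the 5 compounds of Groups A and B, which also gave most rises over all genes. Of 140 tests of a member against the STHdhQ111 vehicle, 33 were called higher and 14 lower at an adjusted p under 0.05 (limma, Benjamini-Hochberg over all tested genes). The 5 compounds of Groups A and B gave 31 of the 33 rises (93.9%) and 3 of the 14 falls (21.4%). Over all tested genes the same 5 compounds gave 63% of 14915 rises and 58.9% of 16980 falls, and the difference between these shares was not tested. The other 9 compounds gave 2 rises, of Atp6v0e in sodium butyrate and of Atp6v1b2 in trichostatin A, and 11 falls. All these comparisons share the 3 vehicle samples.

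**Figure D1:**
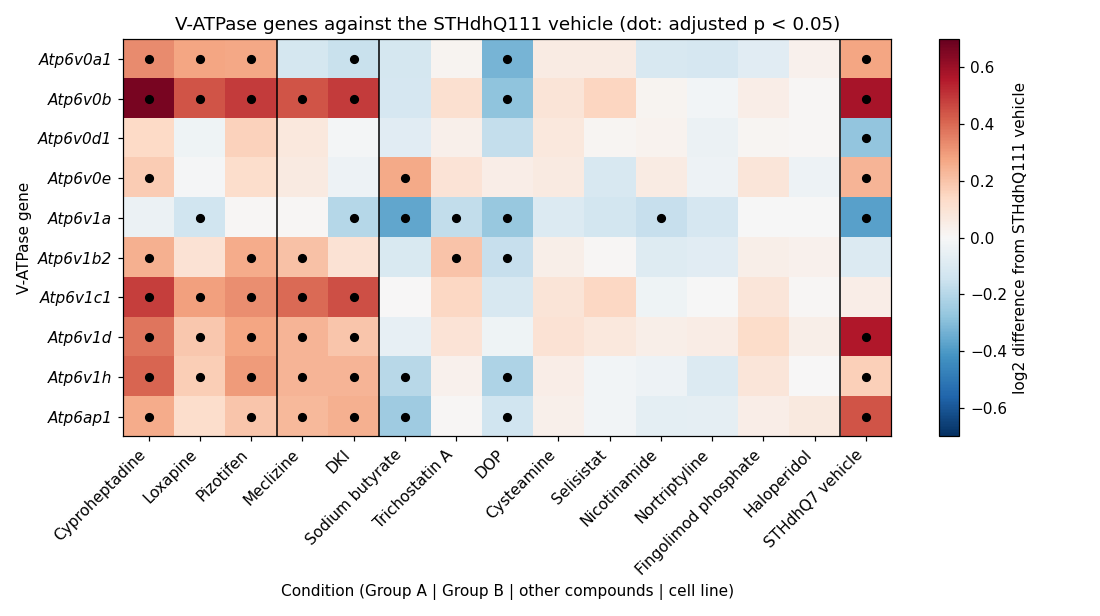
Difference of each of the 10 V-ATPase genes (rows) from the STHdhQ111 vehicle on the log2 scale (colour), for 14 compounds and the STHdhQ7 vehicle (columns). A black dot marks an adjusted p under 0.05. Atp6v0b, Atp6v1c1, Atp6v1d and Atp6v1h carry a dot and are red in all 5 compounds of Groups A and B, while Atp6v0d1 has no dot in any of the 14 compounds.

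In Group A, 7 of the 10 members rose and none fell, beside 15.6% of all tested genes called higher and 17.2% called lower (32.8% in either direction). The median difference of the members was 0.24 on the log2 scale, against 0.0014 over all tested genes. In Group B, 6 members rose and 1 fell, beside 19.8% and 21.2% of all genes (41% in either direction), with a median of 0.18 against -0.0041. The 2 groups are compared with the same 3 vehicle samples, so their lists are not independent.

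Among the V0 genes, Atp6v0b, a proteolipid of the rotating ring, rose most. Its levels were 10.39, 10.50 and 10.60 in the STHdhQ111 vehicle, 10.90, 10.98 and 10.93 in loxapine, 11.18, 11.07 and 11.23 in cyproheptadine and 11.00, 10.92 and 11.04 in pizotifen. In Group B they were 10.98, 10.95 and 10.87 in meclizine and 11.14, 10.86 and 10.96 in DKI. All 15 treated samples lay above all 3 vehicle samples. The difference was 0.53 (SE 0.062, 1.45-fold, limma adjusted p = 2.36e-08) for Group A and 0.46 (SE 0.0659, 1.38-fold, limma adjusted p = 3.76e-07) for Group B.

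Atp6v0a1 encodes isoform 1 of subunit a, which forms the proton path with the ring, and it was the member that separated the groups. Its levels were 10.48, 10.53 and 10.46 in the vehicle. Cyproheptadine gave 10.76, 10.86 and 10.84, loxapine gave 10.73, 10.77 and 10.79, and pizotifen gave 10.84, 10.66 and 10.77. Meclizine gave 10.33, 10.51 and 10.25, and DKI gave 10.38, 10.22 and 10.39. All 9 samples of Group A were above the vehicle, while 5 of the 6 samples of Group B were below it and 1, of meclizine, lay among the vehicle samples. The rise in Group A was 0.29 (SE 0.0499, limma adjusted p = 1.75e-05). The fall in Group B was -0.14 (SE 0.053, limma adjusted p = 0.0322), and it depended on single samples: the adjusted p became 0.0714 without vehicle replicate 1, 0.136 without vehicle replicate 2, 0.0657 and 0.0924 without meclizine replicates 1 and 3, and 0.103 without DKI replicate 2. For DKI alone the difference was -0.16 (limma adjusted p = 0.0384). It did not pass over the slots DKI shares with the vehicle (-0.18, limma adjusted p = 0.0678), nor without vehicle replicate 1 (limma adjusted p = 0.0667), vehicle replicate 2 (limma adjusted p = 0.124), vehicle replicate 3 (limma adjusted p = 0.0506) or DKI replicate 2 (-0.095, limma adjusted p = 0.277). For meclizine alone it was -0.12 (limma adjusted p = 0.138), and -0.097 against the slot-matched compounds (limma adjusted p = 0.175). Both passed without meclizine replicate 2, the highest of the 3 (-0.20, limma adjusted p = 0.0191, and -0.17, limma adjusted p = 0.0215).

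The other V0 members did not pass the test in either group. Atp6v0d1, the subunit that couples the ring to the central stalk, differed by 0.092 in Group A (limma adjusted p = 0.266) and 0.030 in Group B (limma adjusted p = 0.76), and it was called in none of the 14 compounds. Its values in Group A ran from 10.71 to 11.12 with a median of 10.91, across the vehicle values of 10.77, 10.80 and 10.88. Atp6v0e, a small membrane subunit, differed by 0.097 in Group A (limma adjusted p = 0.203) and 0.013 in Group B (limma adjusted p = 0.894). Without vehicle replicate 3, the highest vehicle sample at 9.89, the difference in Group A was 0.18 (limma adjusted p = 0.0327). Cyproheptadine alone was called for Atp6v0e at 0.18 (limma adjusted p = 0.0469), with samples that overlapped the vehicle, and the call was lost without cyproheptadine replicate 1 (0.14, limma adjusted p = 0.18), cyproheptadine replicate 3 (0.17, limma adjusted p = 0.104), vehicle replicate 1 (0.11, limma adjusted p = 0.307) or vehicle replicate 2 (0.17, limma adjusted p = 0.105). Atp6v0d1 and Atp6v0e are 2 of the 3 members with TCACGTGA in the promoter window, while Atp6v0b, with CACGTG, rose in both groups. Atp6v1b2, Atp6v1c1 and Atp6v1h, which also rose, had no promoter to search. The motif was not tested against the responses.

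Among the V1 genes, Atp6v1c1, a peripheral-stalk subunit that helps hold V1 on V0, rose most. It was at 10.05, 10.08 and 10.14 in the vehicle. Cyproheptadine gave 10.61, 10.50 and 10.60, loxapine gave 10.41, 10.36 and 10.36, pizotifen gave 10.47, 10.37 and 10.40, meclizine gave 10.54, 10.44 and 10.46, and DKI gave 10.72, 10.44 and 10.45. Every treated sample was above every vehicle sample. The difference was 0.37 in Group A (SE 0.0488, 1.29-fold, limma adjusted p = 2.95e-07) and 0.42 in Group B (SE 0.0518, 1.34-fold, limma adjusted p = 2.13e-08).

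Atp6v1h encodes the subunit that stops ATP hydrolysis in V1 that has come off V0. It rose from 10.08 ± 0.029 (SD, n = 3) in the vehicle to 10.37 ± 0.136 (n = 9) in Group A and 10.32 ± 0.079 (n = 6) in Group B, differences of 0.29 and 0.24 (limma adjusted p = 6.31e-06 and 0.000164). Atp6v1d, a subunit of the central stalk, rose from 9.16 ± 0.055 to 9.44 ± 0.097 and 9.38 ± 0.079, differences of 0.28 and 0.22 (limma adjusted p = 9.48e-06 and 0.000442). Atp6v1b2, an isoform of the subunit that shares the nucleotide sites with subunit A, rose by less, 0.20 and 0.15 (limma adjusted p = 4.39e-05 and 0.00179). The samples of both groups lay above the vehicle for all 3 genes. Atp6v1b2 did not pass the test in loxapine (0.099, limma adjusted p = 0.115) or DKI (0.10, limma adjusted p = 0.0735), but did in loxapine against the slot-matched compounds (0.18, limma adjusted p = 0.000595).

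Atp6v1a, the catalytic subunit, was called higher in none of the 14 compounds. It was called lower in 6: loxapine, DKI, sodium butyrate, trichostatin A, DOP and nicotinamide. The share of all tested genes called is given below for each of these compounds. It was at 11.75, 11.68 and 11.65 in the vehicle, from 11.52 to 11.73 with a median of 11.64 in Group A, and from 11.42 to 11.73 with a median of 11.62 in Group B. The differences were -0.058 (limma adjusted p = 0.308) and -0.096 (limma adjusted p = 0.0825). The low values of Group B were those of DKI, at 11.47, 11.59 and 11.42 against 11.73, 11.65 and 11.73 in meclizine. For DKI alone the difference from the vehicle was -0.20 (limma adjusted p = 0.00161). It did not pass with only the compared samples in the fit (-0.16, limma adjusted p = 0.156). Without DKI replicate 2 the fall in Group B passed the test (-0.12, limma adjusted p = 0.0246). Atp6v1a is the third member with TCACGTGA in its window, which was not tested against its levels.

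Atp6ap1, an accessory protein needed for the assembly of V0, was at 11.26, 11.30 and 11.35 in the vehicle. It ran from 11.41 to 11.61 with a median of 11.51 in Group A and from 11.47 to 11.68 with a median of 11.51 in Group B, with no overlap with the vehicle. The differences were 0.19 (SE 0.0405, limma adjusted p = 0.000281) and 0.24 (SE 0.043, limma adjusted p = 2.16e-05). In loxapine alone it was 0.13 and did not pass the test (limma adjusted p = 0.0642), while against the slot-matched compounds it was 0.19 (limma adjusted p = 0.000956).

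**Figure D2:**
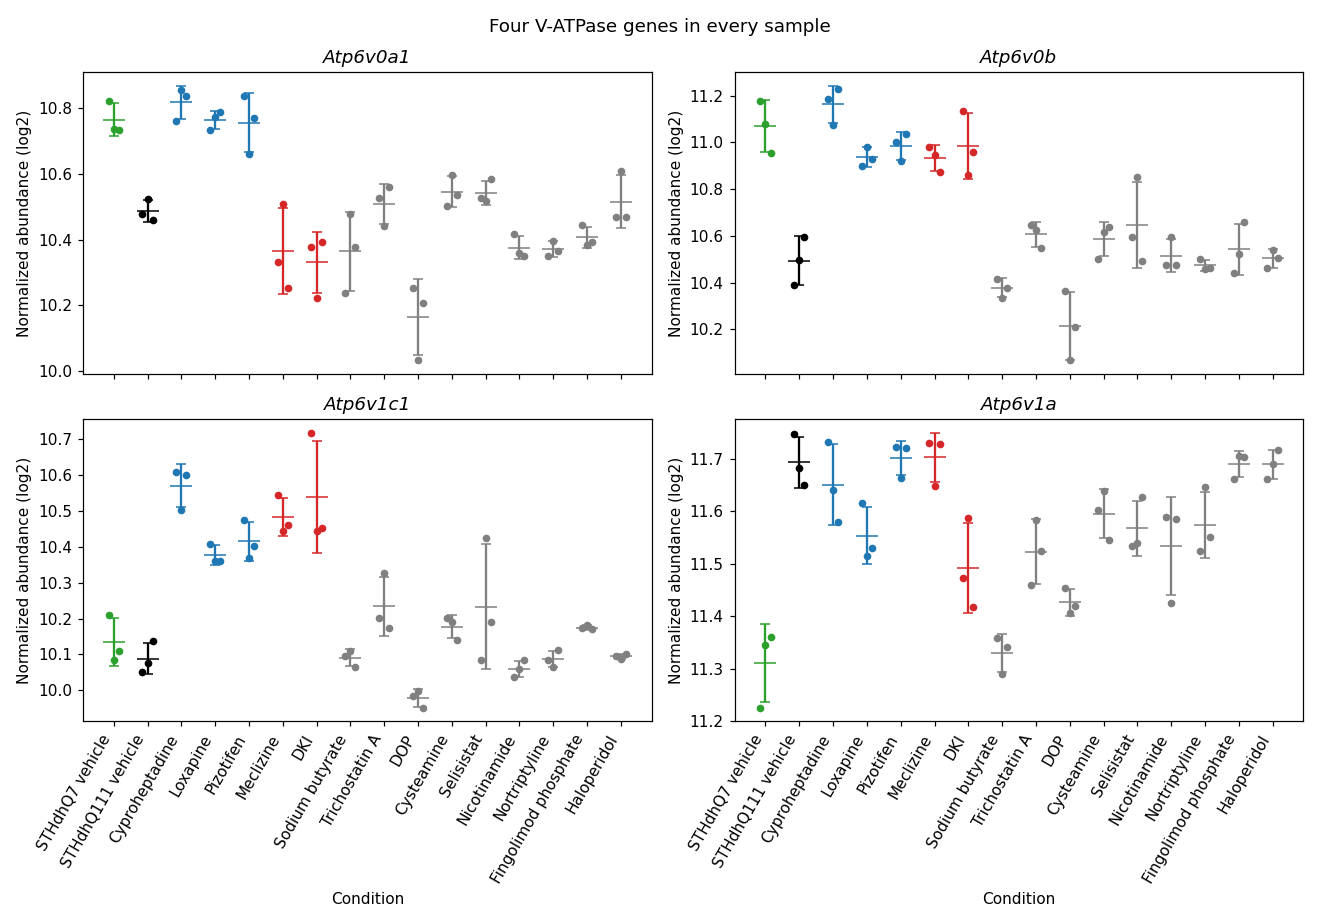
Normalized log2 abundance of Atp6v0a1, Atp6v0b, Atp6v1c1 and Atp6v1a (panels) in every sample of the 16 conditions. Points are samples, bars are the mean and SD of 3 samples, and each panel has its own axis, which does not start at 0. Green is the STHdhQ7 vehicle, black the STHdhQ111 vehicle, blue Group A, red Group B and grey the other compounds. Group A stands above Group B for Atp6v0a1 with no overlap, both groups stand above the STHdhQ111 vehicle for Atp6v0b and Atp6v1c1, and STHdhQ7 and sodium butyrate are lowest for Atp6v1a.

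Rises were also called against the slot-matched compounds, controls at nanomolar or lower doses that were chosen with earlier results known. Meclizine had 6 members higher (14.8% of all genes higher, 28.8% in either direction), pizotifen 7 (9.34% and 17.3%) and loxapine 7 (11.9% and 22.8%), with none lower in the 3 comparisons. Some of these calls rested on single samples. Atp6v1d in meclizine (0.15, limma adjusted p = 0.0145) and Atp6v1h in meclizine (0.19, limma adjusted p = 0.0025) did not pass without meclizine replicate 1 (limma adjusted p = 0.0817 and 0.0574). Atp6ap1 in pizotifen (0.14, limma adjusted p = 0.022) overlapped its controls and did not pass without pizotifen replicate 1, pizotifen replicate 3 or haloperidol replicate 3 (limma adjusted p = 0.143, 0.0867 and 0.0549). Atp6v1d in loxapine (0.14, limma adjusted p = 0.0301) did not pass without any 1 of the 3 loxapine samples, nicotinamide replicate 1 or nortriptyline replicate 3 (limma adjusted p from 0.0547 to 0.166).

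Against the vehicle the counts were 6 higher for meclizine (13.1% of all genes higher, 26.8% in either direction), 7 higher for pizotifen (8.86% and 17.9%) and, for loxapine, 5 higher and 1 lower (10.1% higher, 11.8% lower, 21.9% in either direction). Atp6v1d and Atp6v1h in loxapine (0.19 and 0.17, limma adjusted p = 0.0132 and 0.0284) did not pass without vehicle replicate 1 (limma adjusted p = 0.084 and 0.116) or loxapine replicate 1 (limma adjusted p = 0.0718 and 0.169), and Atp6v1h did not pass without vehicle replicate 3 or loxapine replicate 2 (limma adjusted p = 0.0507 and 0.0535). The 1 lower was Atp6v1a in loxapine, at -0.14 against the vehicle (limma adjusted p = 0.0457), which did not pass without vehicle replicates 1 or 2 or loxapine replicates 2 or 3 (limma adjusted p from 0.0854 to 0.217). Against nicotinamide and nortriptyline it was 2e-04 (limma adjusted p = 0.998). Those 2 compounds were themselves at -0.16 (limma adjusted p = 0.0392) and -0.12 (limma adjusted p = 0.191) against the vehicle for Atp6v1a. With collection time added to the fit, Atp6v1a stayed at -0.14 in loxapine (limma adjusted p = 0.0592) and at -0.16 in nicotinamide (limma adjusted p = 0.0536), and neither passed. What part the slot of day and time had in this was not tested. Cyproheptadine had 8 members higher (17.5% of all genes higher, 18.2% lower, 35.6% in either direction) and, over the 2 slots it shares with the vehicle, 7. DKI had 5 higher and 2 lower (20.4% higher, 21.9% lower, 42.3% in either direction) and, over the shared slots, 3 higher and 1 lower. Atp6v1d (0.12, limma adjusted p = 0.192) and Atp6v1h (0.17, limma adjusted p = 0.0568) were among those that no longer passed for DKI, and without DKI replicate 1 Atp6v1d did not pass either (0.14, limma adjusted p = 0.0669).

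Between Groups A and B only Atp6v0a1 passed the test, 1 of 10 members, beside 41.3% of all tested genes called in either direction (19.9% higher and 21.4% lower). Its level was 10.78 ± 0.061 (SD, n = 9) in Group A and 10.35 ± 0.103 (n = 6) in Group B, and the 2 ranges, 10.66 to 10.86 and 10.22 to 10.51, did not overlap. The difference was 0.43 (SE 0.0394, 1.35-fold, limma adjusted p = 2.13e-11). Pairs of samples that shared day and time gave the same direction in 6 of 6 cases: cyproheptadine exceeded DKI by 0.39, 0.63 and 0.44, and pizotifen exceeded meclizine by 0.51, 0.15 and 0.52. The 0.15 came from the pair on day 2, in which pizotifen had its lowest value and meclizine its highest. A direction shared by 6 of 6 pairs was not particular to Atp6v0a1. Atp6v0d1 (0.052 to 0.26) and Atp6v1d (0.027 to 0.30) were also higher in Group A in 6 of 6 pairs, by less. Atp6v0b, Atp6v1b2 and Atp6v1h were higher in 5 of 6. The doses of pizotifen and meclizine differ (5 and 10 µM), and those of cyproheptadine and DKI are the same (10 µM).

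For the other 9 members the 95% interval of Group A minus Group B included 0. It ran from -0.030 to 0.17 for Atp6v0b, from -0.135 to 0.021 for Atp6v1c1 and from -0.111 to 0.018 for Atp6ap1 on the log2 scale. Atp6v0e passed without DKI replicate 2 (0.12, limma adjusted p = 0.0338) and Atp6v1b2 without pizotifen replicate 2 (0.071, limma adjusted p = 0.0388). Loxapine shares no slot with Group B. With loxapine left out, a choice made after the values were seen, every sample of Group A has a partner in Group B from the same slot and 5 members passed the test, all higher in Group A, beside 17.2% of all genes called higher. They were Atp6v0a1 (0.44, limma adjusted p = 2.15e-10), Atp6v0e (0.14, limma adjusted p = 0.0281), Atp6v1h (0.12, limma adjusted p = 0.0221), Atp6v1d (0.11, limma adjusted p = 0.0266) and Atp6v1b2 (0.10, limma adjusted p = 0.0107). Atp6v1c1 and Atp6ap1 stood at -0.018 and -0.013.

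**Figure D3:**
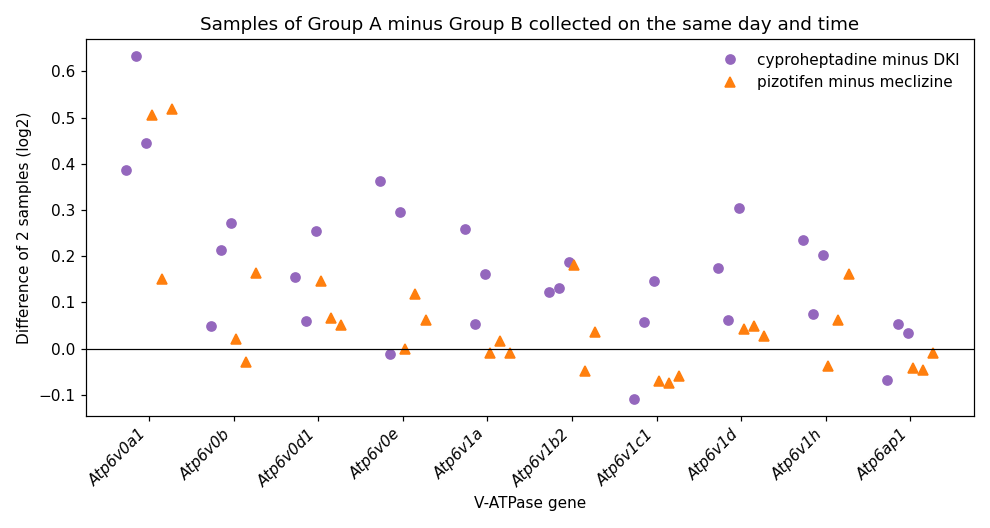
Difference in normalized log2 abundance between a sample of Group A and a sample of Group B from the same collection day and time (vertical axis), for the 10 V-ATPase genes (horizontal axis). Circles are cyproheptadine minus DKI and triangles pizotifen minus meclizine, 3 pairs each. All 6 pairs are above 0 for Atp6v0a1 (0.15 to 0.63), Atp6v0d1 (0.052 to 0.26) and Atp6v1d (0.027 to 0.30), while Atp6v1c1 and Atp6ap1 have 2 of 6 pairs above 0.

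Compounds were also compared within the groups. DKI against meclizine gave 1 call in 10, a lower Atp6v1a in DKI (-0.21, SE 0.0517, limma adjusted p = 0.00766), beside 8.11% of all genes in either direction (4.3% higher and 3.8% lower), and it did not pass without DKI replicate 1 (limma adjusted p = 0.0548) or DKI replicate 3 (limma adjusted p = 0.0604). Cyproheptadine against loxapine at the same dose gave 4 members higher in cyproheptadine, all of V1, beside 4.91% of all genes higher and 5.56% lower (10.5% in either direction): Atp6v1h (0.24), Atp6v1c1 (0.19), Atp6v1d (0.18) and Atp6v1b2 (0.15). Their limma adjusted p-values were 0.00505, 0.0316, 0.0303 and 0.029, and none of the 4 passed without cyproheptadine replicate 1 (limma adjusted p from 0.0511 to 0.193). Without cyproheptadine replicate 3, or without loxapine replicate 2 or 3, Atp6v1h alone of the 4 passed, and without loxapine replicate 1 Atp6v1h and Atp6v1d passed. Atp6v0b (0.22, limma adjusted p = 0.0544) passed without cyproheptadine replicate 2 (0.27, limma adjusted p = 0.0414). Cyproheptadine and loxapine shared no slot, so compound and slot cannot be told apart in this comparison. Cyproheptadine and pizotifen were given at different doses, and their differences from the vehicle stood at 0.67 and 0.49 for Atp6v0b, 0.48 and 0.33 for Atp6v1c1 and 0.25 and 0.26 for Atp6v1b2.

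DOP was the compound with the most falls. It had 6 members lower and none higher (11.2% of all genes lower, 8.93% higher, 20.1% in either direction). Atp6v0a1 was at 10.25, 10.03 and 10.21, below the vehicle samples at 10.46 to 10.53, a difference of -0.32 (SE 0.061, limma adjusted p = 0.00024). Atp6v0b was at 10.36, 10.07 and 10.21 (-0.28, limma adjusted p = 0.00733), and Atp6v1a at 11.45, 11.41 and 11.42 (-0.27, limma adjusted p = 0.000305). Atp6v1h, Atp6v1b2 and Atp6ap1 differed by -0.22, -0.16 and -0.14 (limma adjusted p = 0.0063, 0.00865 and 0.0378). Against nicotinamide and nortriptyline, which share its slots, 3 members were lower (5.08% of all genes lower, 10.6% in either direction): Atp6v0b (-0.28), Atp6v0a1 (-0.21) and Atp6v1h (-0.15). DOP replicate 2 had the lowest value of the 3 for Atp6v0a1 and Atp6v0b, and without it 3 members were called against the vehicle and 0 against the slot-matched compounds. The fall of Atp6ap1 also did not pass without vehicle replicate 2, vehicle replicate 3 or DOP replicate 3 (limma adjusted p = 0.0858, 0.14 and 0.143), nor that of Atp6v0b without vehicle replicate 3 (limma adjusted p = 0.0502). Against the slot-matched compounds the fall of Atp6v1h did not pass without 7 of the 9 samples left out in turn (limma adjusted p from 0.0523 to 0.15).

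The histone deacetylase inhibitors gave falls of Atp6v1a, as did loxapine, DOP, DKI and nicotinamide. Sodium butyrate put it at 11.36, 11.29 and 11.34, below all vehicle samples, a difference of -0.36 (SE 0.0512, limma adjusted p = 7.27e-07) that was -0.22 against the slot-matched compounds (limma adjusted p = 0.000167). Trichostatin A put it at 11.46, 11.58 and 11.52, a difference of -0.17 against the vehicle (limma adjusted p = 0.0223) and -0.17 against its slot-matched compounds (limma adjusted p = 0.00833). In sodium butyrate Atp6ap1 (-0.25, limma adjusted p = 0.000146) and Atp6v1h (-0.20, limma adjusted p = 0.00658) also fell, while Atp6v0e rose to 10.02, 9.93 and 10.05 from 9.59, 9.72 and 9.89 (0.26, limma adjusted p = 0.00302). These 4 calls stand beside 17.8% of all genes lower and 19.6% higher (37.5% in either direction), and the same 4 were called against the slot-matched compounds (13.8% lower, 17% higher, 30.8% in either direction). The rise of Atp6v0e did not pass without vehicle replicate 1 (0.19, limma adjusted p = 0.0601), nor did the fall of Atp6v1h without sodium butyrate replicate 3 (-0.16, limma adjusted p = 0.0514). Against the slot-matched compounds Atp6v1h (-0.13, limma adjusted p = 0.039) overlapped them and did not pass without sodium butyrate replicates 2 or 3, nicotinamide replicate 3 or nortriptyline replicates 2 or 3 (limma adjusted p from 0.0551 to 0.227). Without sodium butyrate replicate 2 Atp6v0a1 (-0.18, limma adjusted p = 0.0319) and Atp6v1b2 (-0.15, limma adjusted p = 0.0203) also passed against the vehicle.

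In trichostatin A Atp6v1b2 rose to 10.73, 10.73 and 10.67 from 10.50 to 10.53 (0.20, limma adjusted p = 0.00218), and 1 higher and 1 lower member stand beside 6.41% and 6.68% of all genes (13.1% in either direction). The same 2 members passed against the slot-matched compounds (8.08% higher, 6.32% lower, 14.4% in either direction). The fall of Atp6v1a in trichostatin A did not pass without vehicle replicate 1 (limma adjusted p = 0.137), vehicle replicate 2 (limma adjusted p = 0.0548), trichostatin A replicate 1 (limma adjusted p = 0.164) or trichostatin A replicate 3 (limma adjusted p = 0.0501). Against the slot-matched compounds it did not pass without trichostatin A replicate 1 (limma adjusted p = 0.126).

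The remaining 6 compounds gave 1 call in 60 tests by limma. Nicotinamide lowered Atp6v1a, as given above, beside 7.59% of all genes lower and 2.82% higher (10.4% in either direction), and without vehicle replicate 1, vehicle replicate 2 or nicotinamide replicate 2 the limma adjusted p was 0.225, 0.0949 or 0.313. Selisistat, nortriptyline, fingolimod phosphate, haloperidol and cysteamine gave 0 calls, with 2, 1, 1, 0 and 0 members at an unadjusted p under 0.05. Over all tested genes these 5 had 0.515%, 3.83%, 0.0597%, 0% and 7.83% called in either direction, with 0.358% higher and 0.157% lower for selisistat, 0.746% and 3.08% for nortriptyline, and 2.33% and 5.5% for cysteamine. Against its slot-matched compounds cysteamine also gave 0 calls, with 4 members at an unadjusted p under 0.05 and 0.119% of all genes called. Selisistat replicate 2 stood apart for Atp6v0b (10.60, 10.85 and 10.49) and for Atp6v1c1 (10.08, 10.42 and 10.19). Without selisistat replicate 1 Atp6v1c1 passed (0.23, limma adjusted p = 0.044).

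The order of the conditions was alike for most members. The highest mean was that of cyproheptadine for Atp6v0a1, Atp6v0b, Atp6v1c1 and Atp6v1h, of pizotifen for Atp6v0d1 and Atp6v1b2, of STHdhQ7 for Atp6v1d and Atp6ap1, of sodium butyrate for Atp6v0e and of meclizine for Atp6v1a. The lowest mean was that of DOP for Atp6v0a1, Atp6v0b, Atp6v1b2, Atp6v1c1 and Atp6v1h, of sodium butyrate for Atp6v1d and Atp6ap1, of STHdhQ7 for Atp6v0d1 and Atp6v1a, and of selisistat for Atp6v0e. The distance between the highest and the lowest mean ran from 0.38 in Atp6v0e to 0.95 in Atp6v0b, against a pooled SD within conditions of 0.087 and 0.095. Neighbours in the order often lay closer than that SD: for Atp6v0a1, cyproheptadine (10.82), STHdhQ7 (10.76), loxapine (10.76) and pizotifen (10.76) led, then came a step down to cysteamine (10.55).

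Over the 16 condition means, with the collection day removed, Pearson's r of a member with the mean of the other 9 was 0.98 for Atp6v1h, 0.92 for Atp6v0b, 0.81 for Atp6v1c1 and Atp6ap1, 0.78 for Atp6v1b2, 0.77 for Atp6v1d and 0.68 for Atp6v0a1. It was 0.40 for Atp6v0d1, 0.27 for Atp6v1a and 0.13 for Atp6v0e. The 45 pairs of members had a median r of 0.51, from -0.43 to 0.94, with 4 pairs below 0. Outside the pump, the 4 genes given here from those with the profile most like the mean of the members, among 9919 genes compared, were Nup50 (a nuclear pore gene, r = 0.97), Slc31a1 (a copper importer, r = 0.95), Dusp3 (a phosphatase, r = 0.95) and Pqlc2 (a lysosomal exporter of cationic amino acids, r = 0.94). The median r over the genes compared was 0.020, and 35 exceeded 0.9. These correlations are descriptions over 16 points that share the libraries, the vehicle and the collection slots.

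In the vehicle controls the 2 lines differed in 8 of the 10 members, 6 higher and 2 lower in STHdhQ7, beside 55.8% of all genes called (29.2% higher and 26.6% lower). Atp6v0b was at 11.18, 11.08 and 10.95 in STHdhQ7 (0.58 above STHdhQ111, SE 0.0758, limma adjusted p = 3e-08). Atp6v1d was at 9.82, 9.59 and 9.76, against 9.11, 9.16 and 9.22 (0.56, SE 0.056, limma adjusted p = 4.26e-11). Atp6ap1 was at 11.63, 11.82 and 11.78 (0.44, SE 0.0495, limma adjusted p = 8.11e-10). Of the 10 members, only Atp6v1c1 had samples that overlapped between the lines. The share of all tested genes without overlap was not computed, so this cannot be read as a trait of the members.

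Atp6v0a1 was higher in STHdhQ7 by 0.28 (limma adjusted p = 0.00018), Atp6v0e by 0.24 (limma adjusted p = 0.00388) and Atp6v1h by 0.17 (limma adjusted p = 0.0113). The catalytic gene Atp6v1a was lower, at 11.23, 11.35 and 11.36 against 11.65 to 11.75 (-0.38, SE 0.0512, limma adjusted p = 4.26e-08), as was Atp6v0d1, at 10.29, 10.65 and 10.67 against 10.77 to 10.88 (-0.28, limma adjusted p = 0.00197). Single samples carried 3 of these calls: Atp6v0d1 fell short without STHdhQ7 replicate 1 (-0.14, limma adjusted p = 0.0954), Atp6v1h without STHdhQ7 replicate 2 (0.15, limma adjusted p = 0.0548) and Atp6v0e without STHdhQ111 replicate 1 (0.16, limma adjusted p = 0.07). Atp6v1b2 (-0.094, limma adjusted p = 0.0717) and Atp6v1c1 (0.047, limma adjusted p = 0.532) did not pass the test. Atp6v1c1, which both groups raised in STHdhQ111, thus had an interval of -0.074 to 0.17 for the difference between the lines.

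**Figure D4:**
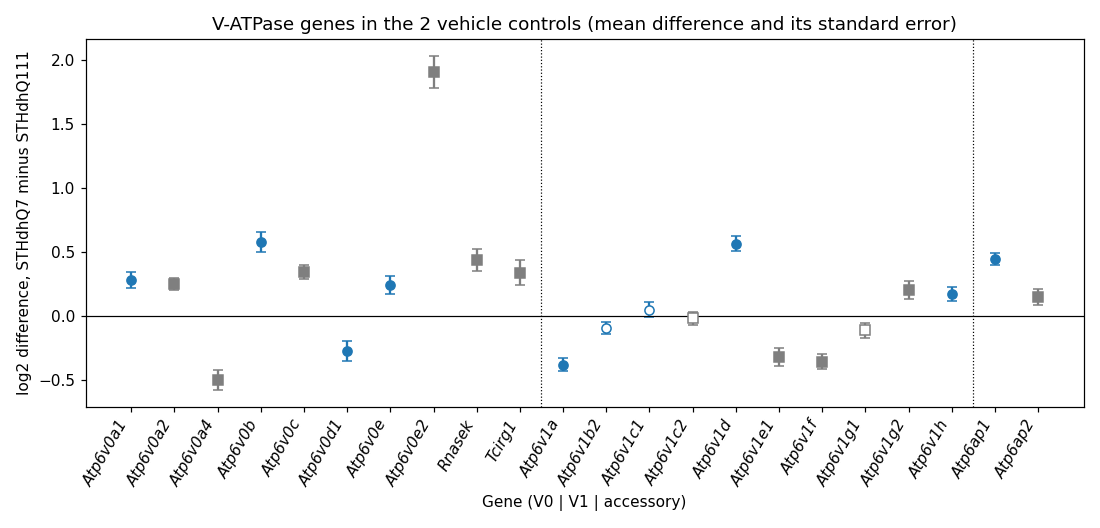
Difference of the STHdhQ7 from the STHdhQ111 vehicle (vertical axis, log2) with its standard error for the V-ATPase genes that were tested (horizontal axis, V0, V1 and accessory genes from left to right). Blue circles are the 10 members, grey squares 12 other genes of the pump, and filled symbols have an adjusted p under 0.05. Atp6v0e2 stands highest at 1.91, and Atp6v1a, Atp6v1e1 and Atp6v1f of the V1 sector lie below 0.

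Of 17 other genes of the pump, 12 were tested. Atp6v0d2, Atp6v1b1, Atp6v1e2 and Atp6ap1l were below the minimum level, and Atp6v1g3 was not analysed here. In Group A 5 of the 12 rose and none fell (32.8% of all tested genes called), led by Atp6ap2, the prorenin receptor (0.45), Atp6v1f of the central stalk (0.25) and Atp6v0c, the main ring proteolipid (0.23). In Group B (41% of all tested genes called) 4 rose, led by Atp6v1g1 of the peripheral stalk (0.38), Atp6v1f (0.29) and Atp6ap2 (0.29). The fall in Group B was that of Tcirg1, isoform 3 of subunit a (-0.35, limma adjusted p = 0.00115). The median of the 12 in Group A was 0.099.

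Tcirg1 and Atp6v0a1 encode isoforms of the same subunit, and both were higher in Group A than in Group B: Tcirg1 stood at 10.08 ± 0.202 (SD, n = 9) and 9.75 ± 0.169 (n = 6), a difference of 0.33 (SE 0.0641, limma adjusted p = 6.94e-05). The other 2 isoforms, named after their values were seen, differed in the same direction by 0.093 (Atp6v0a2, limma adjusted p = 0.0141) and 0.15 (Atp6v0a4, limma adjusted p = 0.0151). Atp6ap2 was higher in Group A by 0.16 (limma adjusted p = 0.000925), and Atp6v1g1 was lower by 0.15 (-0.15 on the log2 scale, limma adjusted p = 0.000981). Of the 12 genes, 4 were higher and 1, Atp6v1g1, lower, beside 41.3% of all tested genes called.

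Between the lines 7 of the 12 were higher and 3 lower in STHdhQ7, beside 55.8% of all tested genes called. The difference of Atp6v0e2, the second isoform of subunit e, was the largest (5.25 ± 0.195 in STHdhQ111 and 7.15 ± 0.074 in STHdhQ7, n = 3, 1.91, limma adjusted p = 5.22e-16). It was named after its value was seen.

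Of 12 assembly factors and regulators of the pump 10 were tested, Tldc2 being below the minimum level and Tbc1d24 not analysed here. In Group A 4 of the 10 were called, beside 32.8% of all tested genes: 1 rose, the assembly factor Tmem199 (0.44, limma adjusted p = 5.41e-07), and 3 fell: the TLDc-domain genes Tldc1 (-0.25) and Oxr1 (-0.21), and Wdr7 (-0.12), a subunit of the rabconnectin complex that joins V1 to V0. In Group B Tmem199 (0.53, limma adjusted p = 1.81e-08) and the rabconnectin gene Dmxl2 (0.20, limma adjusted p = 0.0247) rose and none fell, beside 41% of all tested genes called.

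Ion carriers and their partners in lysosomes or endosomes, where the pump also works, were tested for 10 of 10 genes. In Group A 5 rose and none fell (32.8% of all tested genes called), among them the chloride-proton exchangers Clcn7 (0.34) and Clcn6 (0.30) and Ostm1, the partner of Clcn7 (0.29). In Group B (41% of all tested genes called) 5 rose, led by the calcium channel Mcoln1 (0.45), Clcn7 (0.44) and Clcn3 (0.31), and 3 fell, the two-pore channels Tpcn1 (-0.22) and Tpcn2 (-0.17) and Clcn5 (-0.16). Between the groups 5 were higher in Group A and 2 lower (41.3% of all tested genes called), and Clcn6 (0.38, limma adjusted p = 1.97e-07) and Clcn3 (-0.32, limma adjusted p = 3.02e-07) differed most.

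Of 10 genes of Ragulator and the Rag GTPases, which dock mTORC1 at the lysosome beside the pump, 6 rose and none fell in each group, beside 15.6% of all tested genes called higher in Group A and 19.8% in Group B. Rragd was first in both, at 0.39 in Group A (limma adjusted p = 8.76e-05) and 0.85 in Group B (limma adjusted p = 4.05e-11), and it was lower in Group A than in Group B by -0.47 (limma adjusted p = 3.25e-08), a direction opposite to that of Atp6v0a1. Lamtor3 (0.25 and 0.26), Rragc (0.25 and 0.24) and, in Group B, Rragb (0.33) were next. Between the lines 2 of these 10 genes were higher and 5 lower in STHdhQ7, beside 29.2% and 26.6% of all tested genes.

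The positions of the members bear on how their reads were counted. On GRCm38 (GENCODE) Atp6v0a1 lies at chr11:101009452-101063719, Atp6v0d1 at chr8:105524465-105566047, Atp6v0e at chr17:26663231-26699647, Atp6v1a at chr16:44085402-44139705, Atp6v1c1 at chr15:38661933-38692446, Atp6v1d at chr12:78840725-78861638 and Atp6ap1 at chrX:74297097-74304721, with no gene on the other strand. Atp6v0b (chr4:117884326-117887333), Atp6v1b2 (chr8:69088646-69113711) and Atp6v1h (chr1:5070018-5162529) overlap Gm12841, Slc18a1 and Rgs20 on the other strand, and exons overlap for Gm12841 and Rgs20. The strand setting of the counting is not given in the sources used here, so reads of such a pair could be mixed if strand was ignored. Rgs20 and Slc18a1 were at means of 1.50 and 2.56 over all samples, and Gm12841 was not analysed here. On the same strand Mir6928 overlaps Atp6v0a1, without an overlap of exons, and it was not analysed here either. Of the 50-base words in the transcripts of a member, from 0% to 0.983% (Atp6v1a) also occurred in a transcript of another gene.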

How the data were processed

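RNA was measured in 48 samples, 3 for each of 16 conditions. Per the study's methods and the submitters' processing notes, polyA-selected directional libraries were sequenced in single reads of 50 bases, trimmed with Trimmomatic 0.36 and quantified with RSEM on GRCm38.p5, and the authors normalized with DESeq2. The table the authors deposited holds normalized abundance on a log2 scale, and the transformation is not named in the sources used here. The table carries no counts, so no count test was run here, whereas the authors modelled counts with DESeq2.

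The log2 values were fitted with limma 3.58.1 in R 4.3.3 with no pseudocount, 1 model for 16 conditions and the collection day (30 residual degrees of freedom, variance trend), on the 13409 genes with a symbol and a mean of at least 1. P-values were adjusted by Benjamini-Hochberg over those genes within each of 27 comparisons, with calls at 0.05. Group means weigh compounds equally, and intervals are 95% intervals of the fit. The SE and p-value of a group come from the spread within conditions. They do not cover differences between compounds and hold only for the compounds used. The SD given for a group runs over the samples of all its compounds. Culture independence of replicates is not stated, so p-values measure the spread between these samples. An exact permutation test of 3 against 3 cannot go below 0.1 and was not used. The procedure was tested on simulated data. The members, gene lists, comparisons and slot-matched controls were chosen with earlier results of these data known. All 10 members are named, and from each other list the genes called in Group A or Group B, at most the 3 largest rises and 3 largest falls in each. Promoter sequences are from RefSeq. Alternatives were another minimum level, no day term, a replicate block, the collection time, only the compared samples, only shared slots, median-of-ratios rescaling, a pseudocount of 16, no variance trend and leaving out each sample. Of the 5 genes with the profile most like the members, 1 is not reported here.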

Additional observations from a re-analysis of the deposited data

Results flagged for a closer look

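In 20 groups of 6 or 9 samples (each member in Group A and in Group B), a sample at the edge was compared with its nearest neighbour by Dixon's ratio, which flags about 1 group in 20 by chance, and 2 groups were flagged. For Atp6v1c1 in Group B, DKI replicate 1 was at 10.7187, with the next sample at 10.5445. For Atp6v1d in Group B, DKI replicate 3 was at 9.2285, with the next at 9.3718. Both are samples of DKI, and both genes were higher in Group B than in the vehicle with either sample left out.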

How the results depend on the processing

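Of 104 called differences of members, recomputed 1735 times under alternatives, 1616 kept call and direction, 119 lost the call and 0 turned, and 166 uncalled differences passed in 25 alternatives. Rescaling moved the median of all genes by -0.021 to 0.011. With only the compared samples, the members called went from 1 to 0 for DKI against meclizine and for nicotinamide, from 4 to 0 for cyproheptadine against loxapine, from 2 to 0 for trichostatin A, from 7 to 2 for DKI and from 0 to 1 for cysteamine against slot-matched compounds. This fit has fewer samples. With collection time added, nicotinamide went from 1 to 0. Over slots shared with the vehicle DKI went from 7 to 4. Without loxapine, chosen after seeing the data, Group A against Group B went from 1 to 5. The cause of these changes was not tested. Leaving out 1 sample gave 3 to 6 members for loxapine (3 without vehicle replicate 1), 3 to 6 for DOP (3 without DOP replicate 2), 0 to 3 for DOP against slot-matched compounds (0 without DOP replicate 2), 0 to 1 for selisistat (1 without selisistat replicate 1), 1 to 2 for trichostatin A against either control, 0 to 1 for nicotinamide, 1 to 2 for Group A against Group B (2 without DKI replicate 2 or pizotifen replicate 2), 0 to 1 for DKI against meclizine and 0 to 5 for cyproheptadine against loxapine.

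With a replicate block in place of the day, 7 members were called in Group A, 7 in Group B, 1 between the groups and 8 between the lines, as without it, and cyproheptadine against loxapine gave 5 in place of 4. Deviations of samples from the same day had a mean correlation of -0.055, so samples of 1 day did not deviate alike on average. The mean for other days was 0.028. Deviations were taken from the mean of each condition, which ties these correlations together, so the value for other days is no separate baseline. The check took the day without the time, so pairing of samples within a slot was not tested. Without counts, the precision set by read depth could not be given.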
